A study of Mus musculus with 6 samples.

Results

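The cytosolic ribosomal protein genes encode the protein subunits of the ribosomes that translate messenger RNA in the cytoplasm. They were taken by symbol from the probe annotation of a mouse promoter array: every gene whose symbol began with Rpl, Rps or Rplp and a digit, together with Arbp, the older symbol of Rplp0, and without the Rps6k kinase genes. The rule gave 83 genes of the 16839 symbols on the arrays, 51 named for the large and 32 for the small subunit. The symbol also caught 7 genes that are not standard subunits: the variants Rpl3l, Rpl7l1, Rpl22l1, Rpl36al, Rpl39l and Rps27l, and Rps19bp1, a nucleolar protein that binds Rps19.

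The study mapped where a tagged TEAD4 sat on promoters in mouse C2C12 muscle cells by chromatin immunoprecipitation on microarrays. C2C12 is an established mouse myoblast line. One pool of cells had received a retrovirus expressing TEAD4 with a Flag-HA tag (2 samples, called duplicates in the labels) and another the empty retroviral vector (1 control sample). Both were kept under puromycin, switched to differentiation medium (2% horse serum) for 5 days, crosslinked with 0.4% formaldehyde, and precipitated with the same anti-Flag antibody. The tagged protein was expressed from the virus on top of the TEAD proteins the cells already have, and the cells were infected populations, not clones. It is not stated that the duplicates were separate cultures, so p-values rest on the spread between these samples, which may be technical. The test used, limma, moderates that spread in each window towards a value shared by all windows of an array design. A p-value therefore reflects the 2 samples of its own window only in part. No RNA was measured, so the myotube label was not checked against expressed markers.

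TEAD4 belongs to the TEAD family of transcription factors, which bind the M-CAT element and act with the co-activators YAP and TAZ. Ribosomal protein genes are among the most strongly and evenly transcribed genes of growing cells. Their promoters usually lack a TATA box, hold sites for ETS family factors, Sp1 and YY1, and start transcription within a run of pyrimidines; growing muscle fibres make ribosomes in large numbers.

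Each value below is a log2 ratio of immunoprecipitated over input DNA (IP/input), centred on the median of its array and averaged over a window, which is a probe with all probes within 500 bp on either side (at least 3 probes). The start window is centred on the probe nearest to the annotated transcription start, at most 500 bp away, and 81 of the 83 genes had one (not Rpl37a or Rps15), with 3 to 7 probes. Calls are from limma with Benjamini-Hochberg adjustment over all genes on the arrays, at 0.05. Shares of all genes given beside limma counts are of such adjusted calls. Counts at an unadjusted p are of members only, and no share of all genes was computed for them.

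The promoters that frame the start window results are shown for the 5 genes with the highest and 3 of the 4 genes with the lowest TEAD4 mean, from RefSeq (GRCm38.p6, 200 bases before to 20 bases from the start, written 5′ to 3′ along the gene). Capitals mark GGAATG or CATTCC (the core of the TEAD M-CAT element), CTTCCG or CGGAAG (ETS) and AAGATGGC or GCCATCTT (YY1).
Rps27, chr3:90213629-90213848, - strand: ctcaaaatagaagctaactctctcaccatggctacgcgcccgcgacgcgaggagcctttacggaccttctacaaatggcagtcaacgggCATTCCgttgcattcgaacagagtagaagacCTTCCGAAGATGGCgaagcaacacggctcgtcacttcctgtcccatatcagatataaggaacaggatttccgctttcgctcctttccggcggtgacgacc
Rpl4, chr9:64173187-64173406, + strand: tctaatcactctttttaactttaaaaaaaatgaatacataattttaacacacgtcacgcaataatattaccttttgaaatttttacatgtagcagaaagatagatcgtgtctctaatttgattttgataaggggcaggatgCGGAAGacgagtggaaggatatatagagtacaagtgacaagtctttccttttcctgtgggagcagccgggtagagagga
Rps26, chr10:128626487-128626706, - strand: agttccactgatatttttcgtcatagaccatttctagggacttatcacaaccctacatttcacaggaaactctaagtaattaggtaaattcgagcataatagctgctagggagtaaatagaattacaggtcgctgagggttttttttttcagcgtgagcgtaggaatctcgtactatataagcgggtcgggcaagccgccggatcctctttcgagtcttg
Rps28, chr17:33824543-33824762, - strand: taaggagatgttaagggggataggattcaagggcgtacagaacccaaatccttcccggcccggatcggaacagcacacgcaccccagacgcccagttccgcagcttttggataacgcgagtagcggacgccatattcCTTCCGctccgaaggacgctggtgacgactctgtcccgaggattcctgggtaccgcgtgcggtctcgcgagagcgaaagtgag
Rpl13a, chr7:45128726-45128945, - strand: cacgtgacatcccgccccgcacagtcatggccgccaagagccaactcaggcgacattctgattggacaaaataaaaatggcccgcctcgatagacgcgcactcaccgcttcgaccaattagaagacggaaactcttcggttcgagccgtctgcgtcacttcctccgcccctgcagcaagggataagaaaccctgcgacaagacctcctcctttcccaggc
Rpl38, chr11:114668380-114668599, + strand: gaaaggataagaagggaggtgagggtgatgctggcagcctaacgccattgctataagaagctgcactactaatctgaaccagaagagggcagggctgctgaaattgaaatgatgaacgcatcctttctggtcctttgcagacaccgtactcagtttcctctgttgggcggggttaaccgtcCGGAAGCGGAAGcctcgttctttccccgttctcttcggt
Rps19bp1, chr15:80264287-80264506, - strand: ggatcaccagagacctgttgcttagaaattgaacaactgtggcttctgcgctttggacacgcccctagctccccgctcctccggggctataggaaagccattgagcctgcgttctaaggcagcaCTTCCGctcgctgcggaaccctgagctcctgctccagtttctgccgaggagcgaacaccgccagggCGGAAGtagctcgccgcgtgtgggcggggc
Rps3a1, chr3:86142649-86142868, - strand: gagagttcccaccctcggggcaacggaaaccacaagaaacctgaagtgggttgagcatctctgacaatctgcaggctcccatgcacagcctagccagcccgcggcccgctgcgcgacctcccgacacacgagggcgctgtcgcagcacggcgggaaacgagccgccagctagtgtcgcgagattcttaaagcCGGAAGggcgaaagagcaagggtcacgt

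Rps27 was the 1 of these 8 promoters with the TEAD core between 200 bases before and 20 bases after the start, as CATTCC from -111, followed by the ETS letters from -80 and the adjoining YY1 letters from -74. The ETS letters were present in Rpl4 (from -59) and Rps28 (from -63) among the high promoters, and in Rpl38 (from -19 and -13), Rps19bp1 (from -76 and -10) and Rps3a1 (from -8) among the low ones. In the full RefSeq promoters, 250 bases before to 50 after the start, 61 members with a start window had an entry. GGAATG on either strand was found in 6 of 61 (9.84%) against 12.7% of all 12348 promoters with a start window, and CTTCCG in 41 of 61 (67.2%) against 24.7%. AAGATGGC was found in 5 (8.20% against 3.73%), GGGCGG, the Sp1 letters, in 38 (62.3% against 54.1%), and TATAAA in 6 (9.84% against 11.2%). The 6 members with GGAATG were Rps27, Rps26, Rpl26, Rps16, Rps24 and Rpl36al. Their median TEAD4 start window was 0.64 against 0.42 in the members without it, and over all promoters these medians were 0.20 and 0.18. The means of the 6 ran from 1.45 in Rps27 to 0.15 in Rps24 and 0.10 in Rpl36al. About 1000 bp downstream of the start the order was the other way, at 0.25 with GGAATG and 0.46 without. The start contrast was larger for AAGATGGC, at 0.96 with it and 0.41 without. None of these contrasts was tested. Such matches are letters in a fixed stretch of the reference and do not locate a bound site.

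Over input, ribosomal protein start windows were raised in both TEAD4 samples. Their median was 0.42 in TEAD4 sample 1 and 0.47 in sample 2, against 0.20 and 0.15 over all genes with a start window. Both samples lay above 0 in 73 of 81 members (59.0% of all genes), and limma called 34 of 81 higher than input (42.0%, against 16.2% of all 15586 start windows) and none lower (limma, 1.85% of all; 0 members were called lower under each of the other 6 settings as well). The count ran from 24 of 81 (29.6%, against 11.2% of all genes) with another background correction (normexp) to 50 of 83 (60.2% against 20.3%) with windows of 1000 bp. Under all 7 settings 18 members were called (22.2%, against 6.56% of all genes). A gene without a window in a setting counts as not called there, and 68 members had a start window of at least 5 probes. The rise was modest in size: 2 members, Rps26 and Rps28, reached 2-fold in the start window in both samples (1.05% of all genes did).

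**Figure D1:**
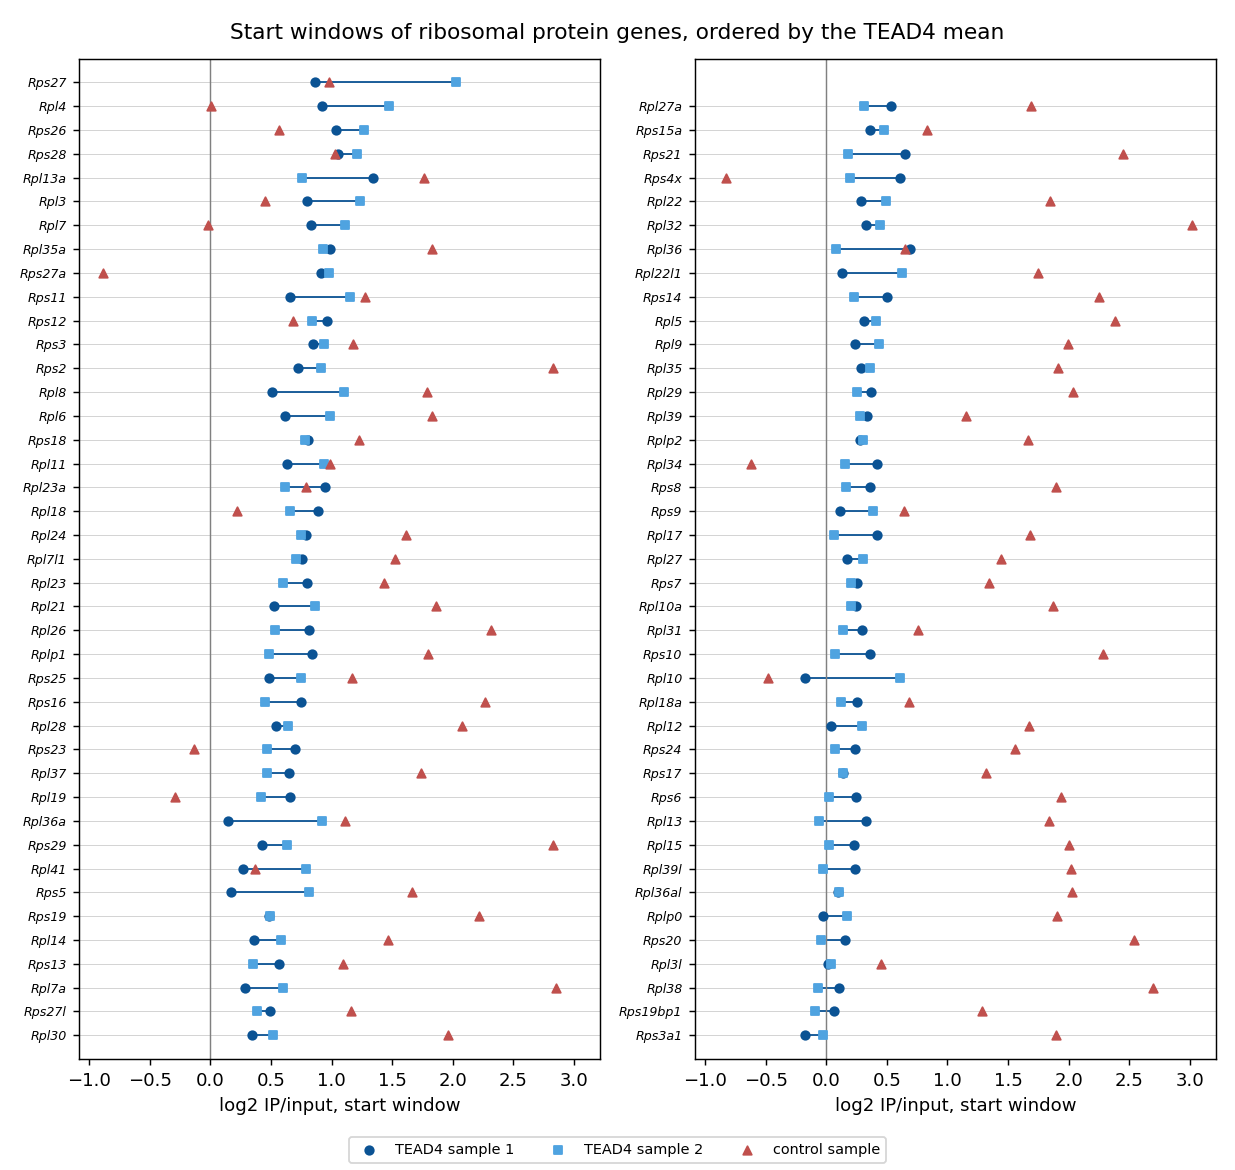
Log2 IP/input in the start window (x axis) of each of the 81 ribosomal protein genes (rows, ordered by the TEAD4 mean, highest at the upper left), with circles and squares for TEAD4 samples 1 and 2, joined by a line, and triangles for the control sample. TEAD4 values run from -0.18 to 2.03 and control values from -0.89 to 3.02. The control triangle lies to the right of both TEAD4 points in 64 genes (79.0%, close to the 79.5% of all genes). It lies to the left in 13 (16.0%, against 13.5% of all genes).

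Among small subunit genes, Rps27, which encodes a zinc-finger subunit, had the highest TEAD4 mean, at 0.86 in TEAD4 sample 1, 2.03 in sample 2 and 0.98 in the control (mean 1.45 ± 0.82, SD, n = 2; limma adjusted p = 0.000821 against input). The control lay between the TEAD4 samples, so the groups overlapped. The p-value of Rps27 rests on a moderated standard error of 0.22, small beside the SD of its 2 samples. Rps26, a subunit at the messenger RNA exit channel, was at 1.04 and 1.27 with 0.57 in the control (1.15 ± 0.16, SD, n = 2; limma adjusted p = 0.000242). Rps28 was at 1.05 and 1.21 with 1.03 in the control (1.13 ± 0.11, SD, n = 2; limma adjusted p = 0.000247). In Rps26 and Rps28 both TEAD4 samples were above the control, in Rps28 by little. Rps27a, made as a fusion of ubiquitin with a ribosomal subunit, was at 0.91 and 0.97 with -0.89 in the control (0.94 ± 0.04, SD, n = 2; limma adjusted p = 0.000801), the member with the largest TEAD4 minus control difference in the start window.

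Among large subunit genes, Rpl4 was at 0.92 and 1.47 with 0.01 in the control (1.20 ± 0.39, SD, n = 2; limma adjusted p = 0.000312 against input). Rpl13a, a subunit also known for a role in silencing inflammatory messages outside the ribosome, was at 1.34 and 0.76 with 1.76 in the control (1.05 ± 0.41, SD, n = 2; limma adjusted p = 0.00154). Rpl3, which lies near the peptidyl transferase centre, was at 0.80 and 1.23 with 0.45 in the control (1.02 ± 0.31, SD, n = 2; limma adjusted p = 0.000747). Rpl4 and Rpl3 were above the control in both samples, and Rpl13a was below it in both. Rpl7 was at 0.83 and 1.11 with -0.02 in the control (0.97 ± 0.20, SD, n = 2; limma adjusted p = 0.00159). Rpl35a, mutated in some cases of Diamond-Blackfan anaemia, was at 0.98 and 0.93 with 1.83 in the control (0.96 ± 0.04, SD, n = 2; limma adjusted p = 0.000708). Of the 8 highest members, Rps27, Rpl4, Rps28, Rpl3, Rpl7 and Rpl35a have start probes that the array classes as divergent promoters, shared with Rab13, Zwilch, Ndufa7, Syngr1, Rdh10 and Iqcg, so the signal cannot be assigned to 1 of the 2 genes. Divergent promoters made up 24 of the 81 members and had TEAD4 medians of 0.51 and 0.64, against 0.37 and 0.41 in the other 57; over all genes the medians were 0.32 and 0.30 against 0.19 and 0.14.

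The stalk genes, whose products recruit elongation factors to the large subunit, differed in their start windows. Rplp1 was at 0.84 and 0.48 with 1.80 in the control (0.66 ± 0.25, SD, n = 2; limma adjusted p = 0.00932 against input). Rplp2 was at 0.28 and 0.30 with 1.67 in the control, and Rplp0 at -0.03 and 0.17 with 1.90; neither was called over input (limma adjusted p = 0.234 and 0.794). All 3 lay below the control in both samples. Rps6, the subunit phosphorylated by S6 kinase, was at 0.24 and 0.03 with 1.93 in the control, and Rps19, the gene most often mutated in Diamond-Blackfan anaemia, at 0.49 and 0.49 with 2.22; neither passed against input (limma adjusted p = 0.600 and 0.0507).

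The lowest TEAD4 start windows belonged to Rps3a1 (-0.17 and -0.03, control 1.89), Rps19bp1 (0.06 and -0.10, control 1.28), Rpl38 (0.11 and -0.07, control 2.70) and Rpl3l (0.02 and 0.04, control 0.45). Rpl38 is a subunit linked to translation of Hox messages, and Rpl3l is the form of Rpl3 made in heart and skeletal muscle. None of these 4 was called over input by limma (adjusted p from 0.701 to 0.948; 0 at an unadjusted p under 0.05). Of the 7 variants and other genes caught by the symbol, 1 was called: Rpl7l1, at 0.76 and 0.71 with 1.52 in the control (limma adjusted p = 0.00390). The other 6 included Rps27l, a p53-responsive relative of Rps27, at 0.49 and 0.39 with 1.16 in the control, and Rpl22l1 at 0.13 and 0.63 with 1.75. Rpl36al was at 0.10 and 0.11 with 2.02, and Rpl39l, a testis-enriched form, at 0.24 and -0.03 with 2.02. All 7 lay below the control in both samples, as 79.5% of all genes did. Without these 7 genes, 33 of the 74 remaining start windows were called over input (44.6%).

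The control start windows were higher still. The control median over members was 1.66, against 1.34 over all genes, and 59 of 81 members were at least 2-fold over input there after centring (72.8% against 61.0%). Before centring, the array medians were -0.64 and -0.56 on the control's arrays and between -0.02 and 0.01 on the TEAD4 arrays. Centring thus raised the control ratios, and 2-fold in the control means 2-fold over its array median. The median TEAD4 minus control difference was -1.14 in ribosomal protein genes and -1.11 over all genes. In limma 7 members exceeded the control and 51 fell short of it, 8.64% and 63.0% against 4.75% and 65.3% of all genes. The 7 were Rps27a, Rps4x, Rpl4, Rpl7, Rpl34, Rpl19 and Rps23. These calls against the control did not hold up to all of the processing. With loess limma called 10 higher and 44 lower (12.3% and 54.3%, against 5.61% and 56.8% of all genes). With windows of 1000 bp it called 7 and 36 of 83 (8.43% and 43.4%, against 4.92% and 59.6% of all genes). With at least 5 probes it called 8 and 42 of 68 (11.8% and 61.8%, against 4.76% and 66.8% of all genes). With every array scaled to the same median absolute deviation limma called 0 higher and 0 lower (12 and 3 at an unadjusted p under 0.05), against 0.141% and 0.0385% of all genes. With normexp it called 4 higher and 0 lower (14 and 4 unadjusted), against 1.57% and 8.46% of all genes, and the control median fell to 0.27, below the TEAD4 median of 0.35.

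Rps27a had the largest difference, 1.83 (limma adjusted p = 1.52e-05), and both TEAD4 samples exceeded the control. Rps4x, on the X chromosome, was at 0.61 and 0.20 with -0.82 in the control, a difference of 1.23 (limma adjusted p = 0.000896). Rpl4 differed by 1.19 and Rpl7 by 0.99 (limma adjusted p = 0.00163 and 0.00696). Across the 7 settings the difference stayed between 0.61 and 1.85 in Rps27a and between 0.76 and 1.79 in Rpl4, each called in 5 of them. Their limma adjusted p reached 0.192 and 0.189. In Rps23 the difference stayed between 0.72 and 1.22 and was called in 6 settings, and limma adjusted p reached 0.216. The difference of Rpl7 turned to -1.30 (called lower) and that of Rps4x to -0.03 with windows of 1000 bp.

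At the other end, Rpl38 had a TEAD4 minus control difference of -2.68 (limma adjusted p = 6.61e-07). Rpl32 was at 0.33 and 0.44 with 3.02 in the control, a difference of -2.63 (limma adjusted p = 1.85e-06). Rps20 was at 0.15 and -0.04 with 2.54, and Rpl7a, in a divergent promoter with Surf5, at 0.29 and 0.60 with 2.85, differences of -2.48 and -2.41 (limma adjusted p = 3.16e-06 and 4.87e-06). In all 4 the control was far above both TEAD4 samples, and the difference kept its sign in every setting where the gene had a start window. With scaled arrays and with normexp none was called (limma adjusted p from 0.0654 in Rpl38 with normexp). The 4 X-linked members had a control median of 0.32 against 1.67 in the autosomal members, and TEAD4 medians of 0.24 and 0.44 against 0.43 and 0.47; over all genes the control medians were 0.91 on the X chromosome and 1.35 on autosomes.

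Away from the start the samples took different shapes. Along members, TEAD4 signal formed a broad rise from about 500 bp before to 1000 bp after the start, with medians of 0.46 and 0.41 in the bin centred 1000 bp downstream, close to 0.46 and 0.47 at the start itself. The control fell from 1.51 at the start to -0.06 at that distance. Over all genes the TEAD4 medians dropped from 0.20 and 0.15 to 0.07 and 0.06, and the control from 1.34 to 0.31. Upstream, at -1000 bp, the TEAD4 medians of members were 0.11 and 0.19.

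**Figure D2:**
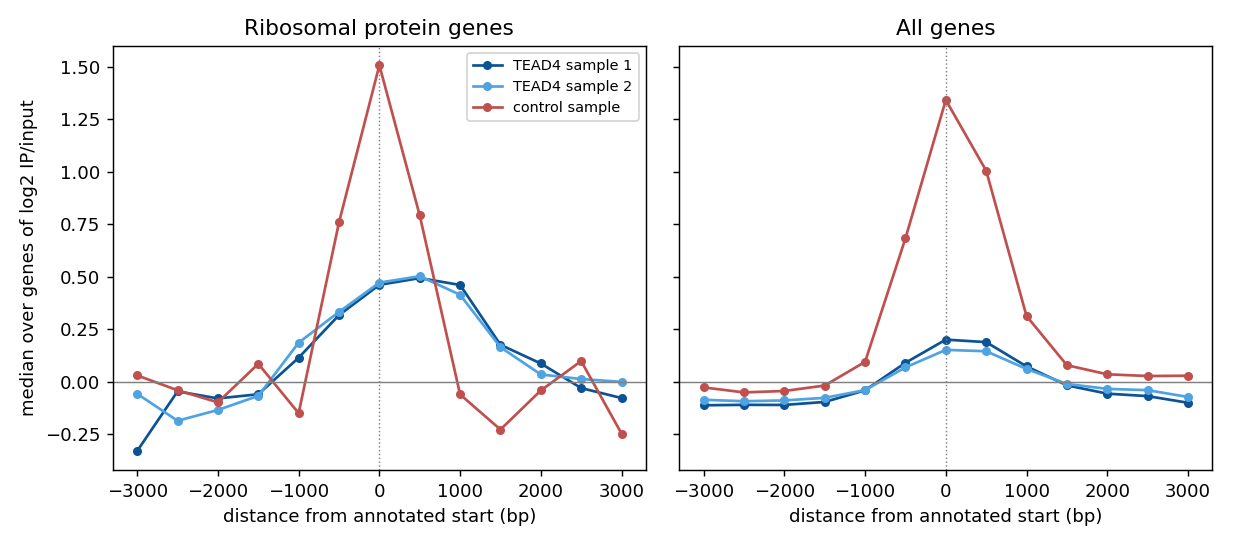
Median over genes of log2 IP/input (y axis) in bins of 500 bp by distance from the annotated start (x axis, bp, negative upstream), for ribosomal protein genes and for all genes, 1 line per sample. At 1000 bp downstream both TEAD4 lines of the ribosomal protein genes stay at 0.46 and 0.41 while the control line is at -0.06; over all genes they are at 0.07, 0.06 and 0.31.

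The highest window within 2000 bp of the start lay at a median of 417 bp and 241 bp downstream in TEAD4 samples 1 and 2, and at -27 bp in the control. Over all genes these medians were 159, 155 and 87 bp. In TEAD4 sample 1 it lay over 500 bp downstream in 37 of 81 members (45.7%, all genes 33.4%) and in sample 2 in 24 (29.6%, all genes 35.6%), so the share was above that of all genes in sample 1 and below it in sample 2.

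A downstream window was therefore taken for each gene, after this profile had been seen: the window nearest to 1000 bp after the start, at most 250 bp from that point. It existed for 79 members and did not overlap the start window in 60 of the 77 members with both. TEAD4 was higher than input in 35 of 79 members by limma (44.3%, against 10.9% of 13957 genes), and 0 were called lower (2.65% of all genes; limma, 0 also under each of the other 6 settings). In the 60 members whose 2 windows did not overlap, 25 were called (41.7%, against 10.8% of 10537 such genes). The median was 0.45 in TEAD4 sample 1 and 0.41 in sample 2, against 0.07 and 0.06 over all genes, and 63 of 79 members were above 0 in both samples (42.3% of all genes were). Across settings 28 to 40 were called (35.4% to 50.0%, against 9.09% to 14.1% of all genes), and 19 of 46 where a window needed 5 probes (41.3% against 14.9%).

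Against the control, 27 members were higher and 10 were lower in the downstream window by limma (34.2% and 12.7%, against 14.0% and 31.9% of all genes). Of the members above the control at the start, Rps27a and Rps23 were called higher downstream too. Rps4x and Rpl34 were called lower there, with differences of -1.51 and -1.16 (limma adjusted p = 0.000283 and 0.00663). The median TEAD4 minus control difference was 0.37 in members and -0.22 over all genes, and both TEAD4 samples exceeded the control in 50 of 79 members (35.4% of all genes). As at the start, these calls depended on the processing. With loess limma called 23 higher and 6 lower (29.1% and 7.59%, against 15.8% and 26.2% of all genes). With normexp limma called 0 higher and 0 lower, against 1.66% and 1.61% of all genes (29 and 3 members at an unadjusted p under 0.05). With scaled arrays it also called 0 and 0, against 0.222% and 0.0502% of all genes (26 and 0 members unadjusted). The median difference stayed positive, at 0.36 and 0.67. With windows of 1000 bp, which reach back to the start in 54 of 80 members, it reversed to -0.23, with 11 members higher and 26 lower (13.8% and 32.5%, against 7.04% and 47.2% of all genes).

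**Figure D3:**
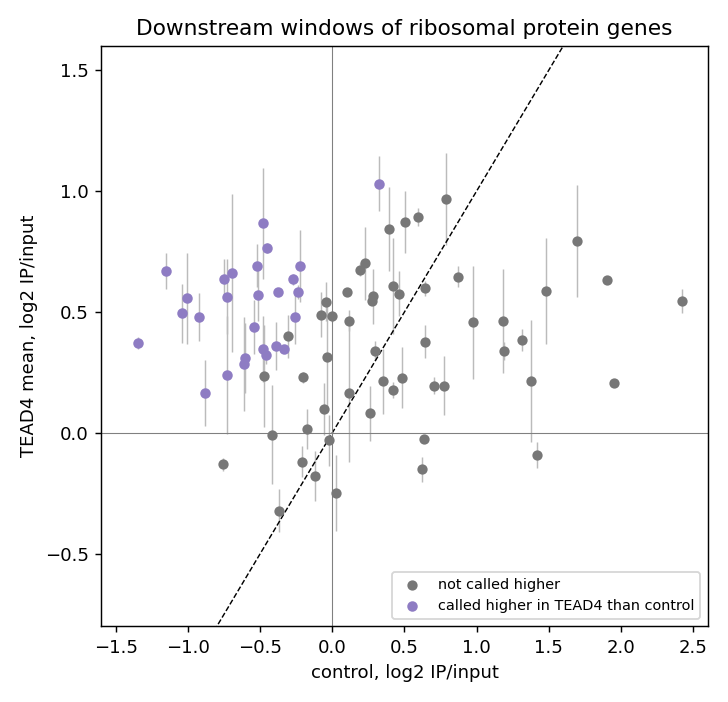
TEAD4 mean (y axis; grey bars run from one TEAD4 sample to the other) against the control sample (x axis), both as log2 IP/input, in the downstream windows of 79 ribosomal protein genes; the dashed line marks equal values. The 27 genes called higher in TEAD4 than in the control by limma (purple) have TEAD4 means from 0.17 to 1.03, and all but Rpl14 have a control value below 0.

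The downstream members described here were chosen after their values were seen, as those with the highest TEAD4 mean or the largest difference from the control. Rpl14, a large subunit gene, had the highest mean, at 0.92 in TEAD4 sample 1, 1.14 in sample 2 and 0.32 in the control (1.03 ± 0.16, SD, n = 2; limma adjusted p = 0.000643 against input). Rps15a followed at 0.78 and 1.16 with 0.79 in the control (limma adjusted p = 0.00230), where sample 1 lay just below the control. Rpl38, at the bottom of the list in its start window, was at 0.64 and 1.10 with -0.48 in the control (limma adjusted p = 0.00274 against input and 0.00118 against the control). Rps3a1, lowest at the start, was at 0.50 and 0.59 with 2.43 in the control (limma adjusted p = 0.0392 against input), so its downstream window rose over input and lay far below the control.

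The largest downstream differences from the control went with low control values. Rpl24 was at 0.74 and 0.59 with -1.15 in the control, a difference of 1.82 (limma adjusted p = 6.43e-05). Rps29 was at 0.35 and 0.40 with -1.35, a difference of 1.72 (limma adjusted p = 9.67e-05), and was not called over input (adjusted p = 0.112). Rps14, mutated or lost in some anaemias, was at 0.74 and 0.37 with -1.004, a difference of 1.56 (limma adjusted p = 0.000323). Of the 27 members higher than the control downstream, 16 were also called over input (59.3%, against 25.1% of the 1958 genes higher there). Their own start window was called lower than the control in 18 (66.7%, close to the 58.7% of those 1958 genes).

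The TEAD4 means of the start and downstream windows showed almost no correlation across members. Of the 77 genes with both windows, 32 were called over input at the start and 35 downstream. Both windows were called in 14 (43.8% of the first and 40.0% of the second). The share of all genes called in both was not computed, so no result is read from that count. Across these 77 genes Pearson's r between the TEAD4 means of the windows was -0.06 and Spearman's rho 0.01, against 0.41 and 0.42 across 13717 genes, where the windows come from the same arrays and some share probes. The TEAD4 samples ranked members alike, with r of 0.62 and rho of 0.64 across 81 start windows and r of 0.67 and rho of 0.66 across 79 downstream windows. Against the control, r across start windows was -0.23 for TEAD4 sample 1 and -0.25 for sample 2, where all genes gave 0.36 and 0.20. Genes are not independent replicates, and these coefficients are descriptions.

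Probe brightness and base composition were examined beside these results. Within 500 bp of the start the input signal of the 391 member probes lay -0.12, -0.08 and -0.02 (log2) from the array median in TEAD4 sample 1, TEAD4 sample 2 and the control, against -0.03, 0.00 and -0.02 for all probes there. The immunoprecipitated signal lay 0.53, 0.48 and 0.99 above it, against 0.19, 0.16 and 1.04, so members were dimmer in input and brighter after precipitation in the TEAD4 samples. Between 750 and 1250 bp downstream the input signal of the 181 member probes lay 0.22, 0.17 and 0.23 (log2) above the array median in TEAD4 sample 1, TEAD4 sample 2 and the control, against 0.04, 0.02 and 0.03 for all probes there; the part of input brightness in either result was not tested. The immunoprecipitated signal of the same member probes lay 0.70, 0.30 and -0.18 from the median, so it was above that of all probes (0.14, 0.10 and 0.00) in the TEAD4 samples and below it in the control. Promoter GC content was alike, with a median of 58.0% in 61 members and 58.7% over all genes. Across promoters, Spearman's rho of GC content with the start window was -0.11, -0.29 and 0.33 in members (TEAD4 sample 1, sample 2, control) and 0.35, 0.18 and 0.58 over all genes. The part of GC content was not tested.

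Taking every window of a gene together (a Simes p per gene), limma called 55 of 83 members higher than input in TEAD4 (66.3% against 24.0% of 16533 genes) and 7 lower (8.43% against 11.8%). The 7 lower were Rps21, Rpl27a, Rps27l, Rpl37a, Rps3a1, Rps20 and Rpl10, each for a window at a log2 IP/input between -0.91 and -0.66. With normexp 34 were called higher (41.0%, against 14.1% of all genes) and 1 lower (1.20% against 0.466%). Windows of 1000 bp gave 12 lower (14.5% against 14.9%), and at least 5 probes gave 3 (3.66% against 10.7%). Against the control 14 were higher and 63 lower (16.9% and 75.9%, against 12.4% and 81.0% of all genes). The direction of such a call is that of the window of lowest p, wherever it lies on the gene. Rpl7 and Rpl19 thus counted as lower (differences of -3.59 and -2.18), though their start windows were called higher. Rpl3 counted as lower through a window well upstream of its start (-1.89). With scaled arrays limma called 0 of either, against 0.774% and 0.206% of all genes (12 and 4 members at an unadjusted p under 0.05). With normexp it called 3 and 5, against 3.84% and 10.3% of all genes.

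At least 2-fold enrichment over input in both TEAD4 samples in any window was reached by 7 members (8.43% against 5.19% of all genes). Of these, 4 had such a window at most 500 bp from the start (Rpl3, Rpl4, Rps26 and Rps28; 4.82% against 2.03% of all genes). For each gene the window with the highest value reached by both samples is described. That of Rpl4 (chr9:63971242-63972085 in the array's coordinates, genome build not given in the sources used here, centred 274 bp inside the gene) was at 1.13 and 1.51 with -0.53 in the control. That of Rpl3 (chr15:79909959-79910648, centred 386 bp inside the gene) was at 1.13 and 1.53 with 0.05 in the control. Both samples were well above the control in each, by 1.84 and 1.28 on average.

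In Rps26 that window was centred at -633 bp (chr10:128029331-128030006), at 1.21 and 1.26 with -0.18 in the control, and 3 windows closer to the start passed too. Rpl21, a large subunit gene, passed 657 bp inside the gene (chr5:147143724-147144545), at 1.18 and 1.08 with 1.33 in the control, which exceeded both. The window of Rpl36 was centred at -3125 bp (chr17:56294937-56295450), where the probe is also annotated to 2410015M20Rik, at 1.15 and 1.51 with 0.53 in the control. At its own start Rpl36 was at 0.69 and 0.08 with 0.65 in the control. Rplp0 passed at -1262 bp (chr5:115818860-115819277), where the samples stood far apart, at 1.26 and 2.54 (SD 0.90, n = 2), and the control was higher still at 4.73.

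**Figure D4:**
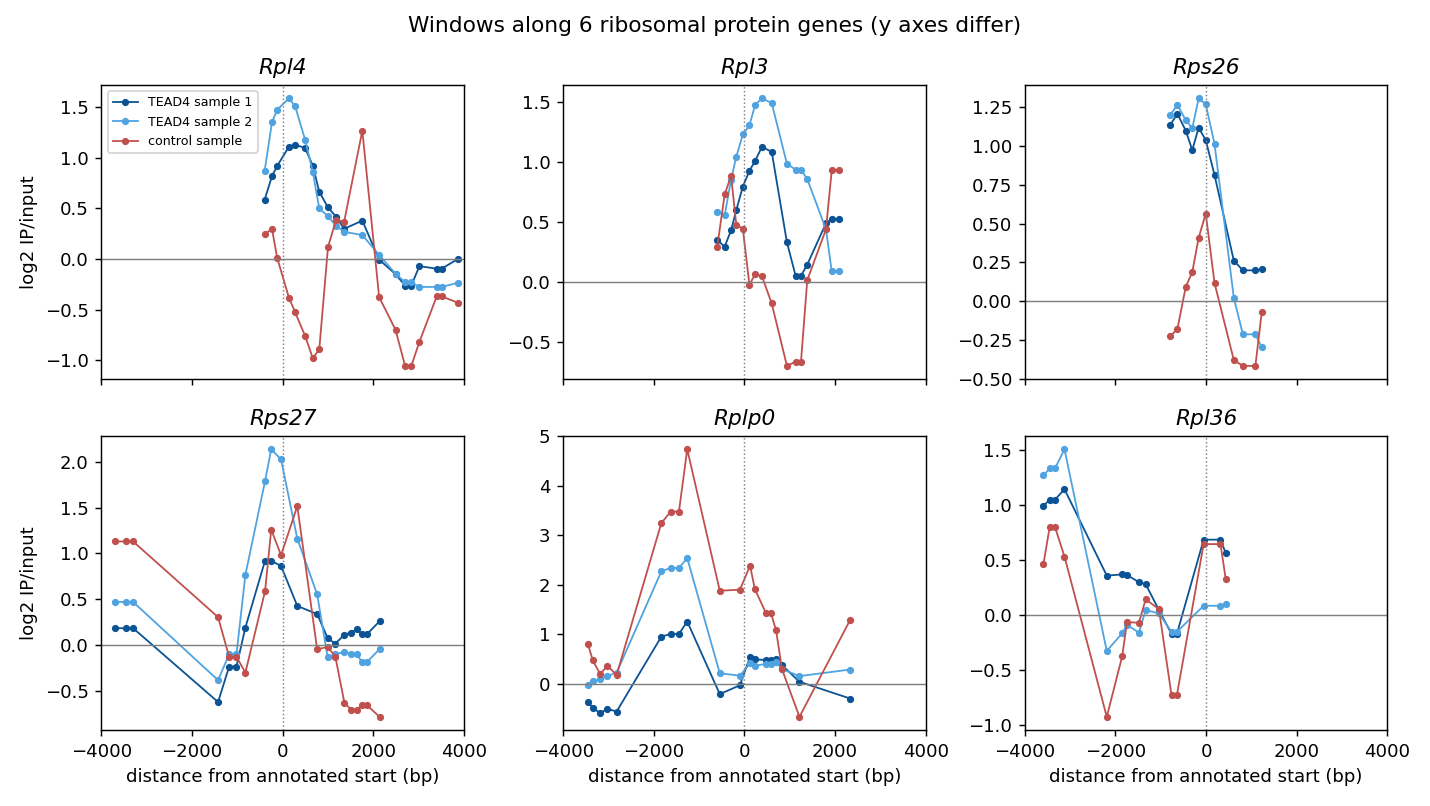
Log2 IP/input (y axis, a scale per panel) in windows along 6 ribosomal protein genes by distance from the annotated start (x axis, bp), with dark and light blue for TEAD4 samples 1 and 2 and red for the control. Rpl4 and Rpl3 peak just inside the gene and Rps26 upstream of the start, where the control is below both TEAD4 lines; at Rplp0 the control line has a maximum of 4.73 at -1262 bp, above both, and falls below both TEAD4 lines at 828 and 1214 bp.

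The size rule depended on the threshold and on both samples: at 1.5-fold 48 members passed (57.8%, against 20.2% of all genes) and at 3-fold 0 (0.78% of all genes). With TEAD4 sample 2 alone 19 passed (22.9% against 15.5%), and with sample 1 alone 16 (19.3% against 8.05%). Requiring the window to be 2-fold above the control as well left 3 members (3.61% against 2.55% of all genes): Rpl3, Rpl4 and Rps26.

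Other groups of genes placed these values. Mitochondrial ribosomal protein genes (Mrpl or Mrps and a digit) and olfactory receptor genes (Olfr and a digit) were taken by symbol. The other groups were lists of textbook members. Of mitochondrial ribosomal protein genes, whose products serve the ribosome inside mitochondria, 23 of 69 start windows were called over input (33.3%) but 2 of 58 downstream windows (3.45%), with downstream TEAD4 medians of 0.00 and -0.03. Of ribosome biogenesis genes, which assemble ribosomes in the nucleolus, 11 of 24 were called at the start (45.8%) and 2 of 19 downstream (10.5%). Of translation factors and other messages with a terminal pyrimidine tract 3 of 11 were called at the start and 3 of 11 downstream. Among ribosomal protein genes with other names, Fau and Rack1 [Gnb2l1] were called at the start and Rpsa was not, and Rack1 was called downstream. Olfactory receptor genes, mostly silent outside the nose, had 1 of 663 start windows called. None of these differences between lists was tested.

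**Figure D5:**
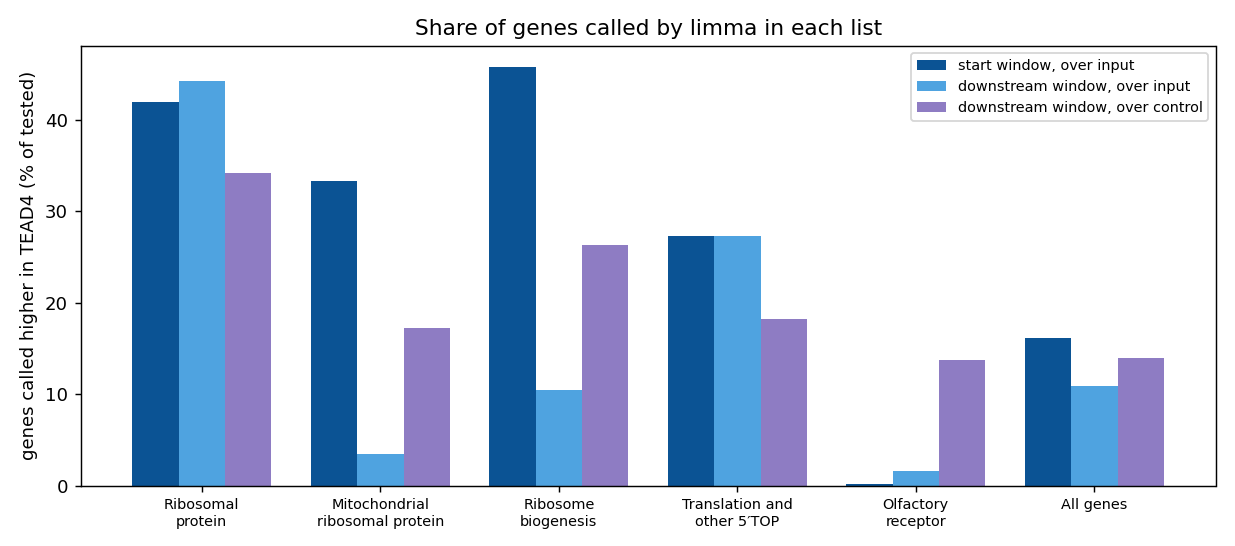
Share of genes (y axis, percent of the genes tested in each list) called higher by limma in 3 comparisons: TEAD4 over input in the start window (dark blue), TEAD4 over input in the downstream window (light blue) and TEAD4 over the control in the downstream window (purple). In ribosomal protein genes the 3 bars are at 42.0%, 44.3% and 34.2%; in mitochondrial ribosomal protein genes they are at 33.3%, 3.45% and 17.2%.

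The arrays themselves differed between the groups. Signal over background in the immunoprecipitated channel was 1.84 and 2.04 on the control's arrays against 3.62 to 5.41 on the TEAD4 arrays, the SD of its log2 ratios was 1.59 and 1.61 against 0.50 to 0.58, and it alone was scanned with extended dynamic range. With 1 control sample, these properties and the empty vector cannot be told apart. The best window of a gene is that with the highest value reached by both TEAD4 samples. Its median TEAD4 mean was 0.37 over all genes and 0.72 over members. In 5 reference genes (Ankrd1, Ccn1 and Ccn2, which respond to YAP and TEAD, with Ankrd2 and Thbs1) it was at TEAD4 means from 1.16 to 2.78. The control there was at 0.85 in Ccn2 and 1.10 in Ccn1 and between -0.66 and -0.01 in the other genes. In their start windows 3 of the 5 reference genes lay below the control in both TEAD4 samples. The best window was picked for its height, in genes chosen with earlier results of these data known. The reference genes also had more windows (median 41, against 25 over all genes). These values are therefore no test of the precipitation.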

How the data were processed

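C2C12 chromatin was hybridised to a pair of Agilent promoter array designs, 6 arrays for 3 samples, with immunoprecipitated DNA in Cy5 and input DNA in Cy3, per the labels. The authors deposited scanner files (made with Feature Extraction 9.5.3.1 according to their headers) whose processed intensity in each channel Agilent's software corrects for background and dye bias. The authors' deposited value table holds the scanner's log10 ratio (largest difference 0 on each array; array medians from -0.182 to 0.00124) and served as an alternative. Genome build of the probes: not given in the sources used here.

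Here the log2 ratio of the deposited processed intensities was computed for 471870 probes, centred on each array's median and averaged in windows. limma 3.58.1 (R 4.3.3) was fitted within each design to the TEAD4 and control groups, whose 1 residual degree of freedom is the difference of the 2 TEAD4 samples. The control was assumed to vary like them. The variance of each window was moderated (eBayes) with 13.4 and 14.0 prior degrees of freedom in designs 1 and 2. The p-values thus rest mostly on a variance shared over windows. Tests are two-sided. The fit was tested on simulated data, with independent noise of the TEAD4 samples' size in all samples. The control's arrays had a wider spread than that, so the simulation does not bear on calls against the control. Its noise was also independent between neighbouring probes, and whether that holds in these data was not tested. The simulation therefore does not give the error rate of the calls over input either. Symbols were updated through RefSeq (16491 by accession, 182 by symbol and 109 by synonym, 57 kept).

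Genes were named by rule: members past the 2-fold size rule, the 8 highest and 4 lowest TEAD4 start windows, the 4 highest and 4 lowest differences from the control, 8 fixed members and the variants. Members and lists were chosen with earlier results of these data known, and the downstream window after seeing the position profile. Alternatives were normexp (offset 50), loess, scaled arrays, windows of 1000 bp, at least 5 probes, other fold thresholds, the deposited log ratios and each TEAD4 sample alone. Promoters of 20 members with a start window were not analysed here, and 1 ribosomal protein gene outside the member rule is not reported here.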

Additional observations from a re-analysis of the deposited data

How the results depend on the processing

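In each of the 7 settings some start and downstream windows of members were called over input and 0 under it, though which members varied. In all 7 settings 18 start windows were called (22.2%, against 6.56% of all genes) and 12 downstream windows (15.2% against 4.94%). With at least 5 probes only 68 members had a start window and 46 a downstream window, and a missing window counts as not called. Calls against the single control were lost in some settings. Where a count below has no share over all genes beside it, the share stands with the same count above. With normexp background correction limma called 34 ribosomal protein genes over input and 1 under it, and 3 higher and 5 lower than the control. Start windows gave 4 higher and 0 lower, and downstream windows 0 and 0. By the 2-fold rule 4 genes passed (4.82%, against 3.71% of all genes). The medians were 0.35 (start, TEAD4), 0.27 (start, control) and 0.42 (downstream, TEAD4). With arrays brought to a common median absolute deviation limma called 0 genes, start windows or downstream windows against the control in either direction. At an unadjusted p under 0.05 these counts were 12 and 4, 12 and 3, and 26 and 0. There 35 genes passed the 2-fold rule (42.2%, against 15.3% of all genes), and the share of all genes rose too, from 5.19%. The medians were 0.64 and 0.74 at the start and 0.67 downstream, with a downstream difference of 0.67. With loess 28 genes were higher than the control (33.7%, against 19.1% of all genes) and 6 downstream windows were lower (7.59% against 26.2%). The medians were 1.11 (start, control), 0.42 (downstream, TEAD4) and 0.43 (downstream difference). With windows of 1000 bp the downstream difference reversed to -0.23, with 11 windows higher and 26 lower; 54 of those 80 windows reach the start. There 12 genes were called under input, 0 genes passed the 2-fold rule (2.21% of all genes did), and the medians were 0.85 (start, control) and 0.39 (downstream, TEAD4). With at least 5 probes 3 genes were called under input and 19 downstream windows of 46 were called over input. Of these 46 windows, 16 were higher and 5 lower than the control (34.8% and 10.9%, against 14.2% and 35.3% of all genes). The medians were 0.49 and 1.46 at the start and 0.39 downstream, with a difference of 0.28. Fewer members were tested. At 1.5-fold 48 genes passed and at 3-fold 0. With the log ratios as deposited, an alternative chosen after seeing the data like all those for downstream windows and for genes under input, the downstream difference was 0.41 and no count differed. Except for these constructions the cause was not tested. Leaving out each TEAD4 sample gave 16 to 19 genes past the 2-fold rule, a start median of 0.42 to 0.47 with the control at 1.66 in each, a downstream median of 0.41 to 0.45 and a downstream difference of 0.33 to 0.46. The limma counts have no such value, since no residual degree of freedom remains. No paired analysis was possible because the control has 1 sample and the groups share fewer than 2 replicate numbers. Low signal over background on the control arrays limits every comparison with the control.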
